A study of Homo sapiens with 6 samples.

Results

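SWI/SNF complexes are chromatin remodellers that use the energy of ATP to slide or evict nucleosomes and thereby open promoters and enhancers. Each complex holds 1 of 2 interchangeable ATPases, SMARCA4 (BRG1) or SMARCA2 (BRM), on a shared core of scaffold subunits, and large AT-rich interaction domain (ARID) subunits set the kind of complex: ARID1A or ARID1B define canonical BAF, whereas ARID2 and PBRM1 belong to PBAF. Genes of the family are often altered in cancer, and SMARCA4 loss is a known feature of a part of non-small cell lung cancer (NSCLC), with A549 and H1299 commonly used as SMARCA4-deficient cell lines. The 10 subunit genes described here were SMARCA4, SMARCA2, ARID1A, ARID1B, ARID2, SMARCB1, SMARCC1, SMARCC2, SMARCD1, and PBRM1. They were taken by gene symbol from the 46427 genes of the expression table, and all 10 were found.

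Total RNA was sequenced from 6 libraries of 3 established human NSCLC cell lines, H460, H1299, and A549. Each cell line had 1 control library, which the labels call non-treated tumor cells, and 1 library labelled MALAT1 knockdown after transfection of an siRNA against MALAT1 (si-MALAT1), a nuclear lncRNA. The methods mention both a negative control and si-Control and do not say which one was sequenced. The wording of the labels points to cells without transfection. The effect of the siRNA and that of transfection therefore cannot be told apart. The labels give no genotype for any SWI/SNF gene.

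The read counts summed to between 42506818 and 68515992 per library. MALAT1 was at 2181 to 5646 CPM (read counts scaled to library size) in the control libraries and at 300 to 751 CPM in the si-MALAT1 libraries, and the ranges did not overlap. The epithelial keratins KRT8 and KRT18 had over 100 TPM (abundance scaled for transcript length and library size) in all 6 libraries, whereas the epithelial genes EPCAM and CDH1 stayed under 1 TPM in H460 and H1299. PTPRC and CD3E, markers of immune cells, had 0 reads in every library, a count that allows up to 3 reads. The fibroblast marker COL3A1 had 4961 and 4300 reads in H460, with H1299 at 0 and 22 and A549 at 1961 and 1831. Reads of COL1A1, a further fibroblast marker, were fewer in H460 and A549, at 175 and 472 for H460 and 267 and 469 for A549. H1299 had 38 and 144 COL1A1 reads. COL1A1 had more reads in the si-MALAT1 library of each line, whereas COL3A1 had fewer in H460 and A549. The part of these markers in the differences between lines was not tested. CDKN2A, which is known to be deleted in H460 and A549, had 0 reads in those 4 libraries and 2938 and 2679 in H1299.

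To compare the cell lines, the control and si-MALAT1 libraries of a line served as its 2 libraries, with the treatment as a term of the model. In the edgeR quasi-likelihood test over 21771 genes, 9 of the 10 subunit genes differed between H1299 and H460 at an adjusted p under 0.05, 7 of them higher and 2 lower in H1299. This test called 50.7% of all genes in that comparison, 25.9% higher and 24.8% lower. Between A549 and H460, 2 of the 10 genes were called, both lower in A549, against 35.3% of all genes, 17.4% higher and 17.9% lower. Between A549 and H1299, 8 of the 10 were called, all lower in A549, against 47.2% of all genes, of which 22.8% were higher and 24.4% lower in A549. The median log2 difference of the 10 genes was 0.68 for H1299 minus H460, -0.03 for A549 minus H460, and -0.87 for A549 minus H1299, and over all genes tested it was 0.04, -0.01, and -0.06. The spread behind the p-values is what the line and treatment terms leave over in these cultures, with 2 residual degrees of freedom. Since each line is represented by 1 control and 1 transfected culture, that spread includes any difference between lines in the response to si-MALAT1. Without the A549 control library the test called 3795 genes between A549 and H460 and 6058 between A549 and H1299 in place of 7688 and 10271, and without the A549 si-MALAT1 library it called 4083 and 6038.

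The scale of the values mattered for the split of all genes. On log2(TPM + 1), limma called 7903 genes higher and 3947 lower in H1299 than in H460, where the counts gave 5637 and 5403, and 5597 higher and 2643 lower in A549 than in H460, where the counts gave 3788 and 3900. The median of all genes was then 0.16 for H1299 minus H460, 0.11 for A549 minus H460, and -0.04 for A549 minus H1299, so differences from H460 read from TPM lie upward of those read from the counts.

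**Figure D1:**
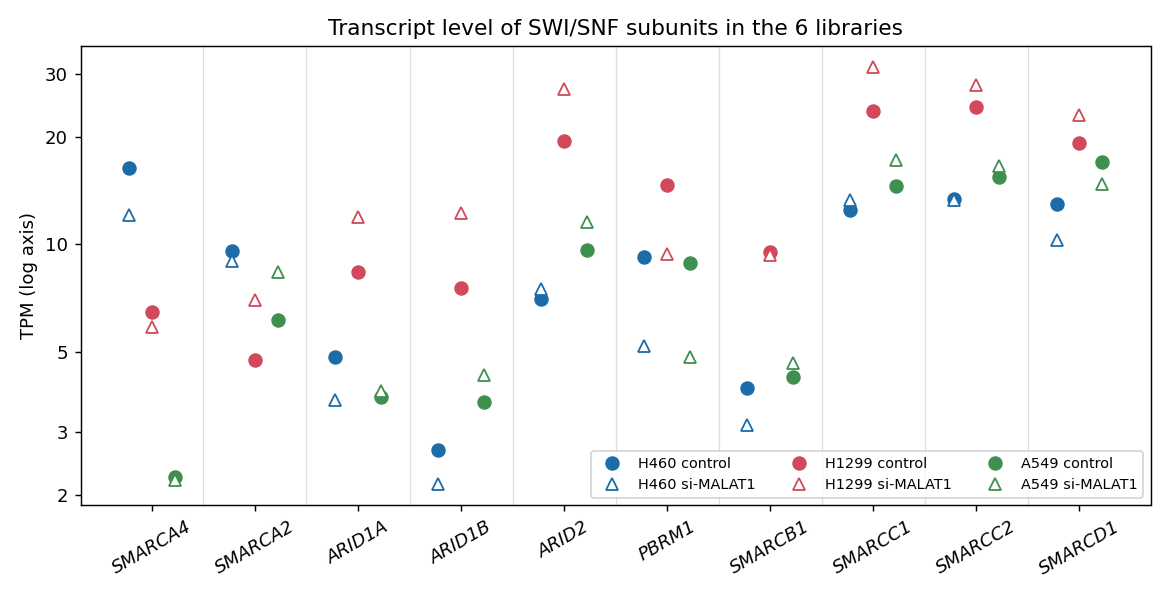
Level of each of the 10 SWI/SNF subunit genes in TPM, on a log axis, in the 6 libraries; filled circles are control libraries and open triangles are si-MALAT1 libraries, coloured by cell line, with 1 point per library. SMARCA4 was spread most widely, from 16.4 TPM in the H460 control library to 2.20 TPM in the A549 si-MALAT1 library, while ARID1A, ARID1B, ARID2, SMARCB1, SMARCC1, SMARCC2, and SMARCD1 were highest in both H1299 libraries.

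Of the 10 genes, SMARCA4 had the widest and SMARCA2 the narrowest ratio of the highest to the lowest line mean in TPM, at 6.42 and 1.58. In CPM, SMARCA4 was again the widest, at 7.59, while SMARCA2 was at 2.04 and SMARCD1 was the narrowest, at 1.41. SMARCA4 (Gene ID 6597; GRCh38 chromosome 19, 10960997 to 11062277) was at 16.4 TPM in the H460 control and 12.1 TPM in the H460 si-MALAT1 library, at 6.47 and 5.87 TPM in H1299, and at 2.24 and 2.20 TPM in A549. No library of a line overlapped those of another. SMARCA4 was the highest of the 10 genes in the H460 control library and the lowest in both A549 libraries and in the H1299 si-MALAT1 library. The reads behind these levels numbered 5162 and 4010 for H460, 2156 and 1706 for H1299, and 426 and 496 for A549, so SMARCA4 transcripts were detected in every library. The log2 difference was -1.46 ± 0.15 (SE) for H1299 minus H460, with an adjusted p of 0.000591. For A549 minus H460 it was -2.91 ± 0.16, with an adjusted p of 0.000112, and for A549 minus H1299 it was -1.45 ± 0.15, with an adjusted p of 0.000770. All 3 calls held under each of the 12 alternatives tried. Reads per gene do not show whether a transcript encodes a full protein.

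SMARCA2 (Gene ID 6595; chromosome 9, 2015347 to 2193624), the other ATPase, was also highest in H460. Its levels were 9.58 and 8.98 TPM in H460, 4.74 and 6.996 TPM in H1299, and 6.17 and 8.40 TPM in A549, and the libraries of H1299 and A549 overlapped. SMARCA2 was lower in H1299 than in H460 by a log2 difference of -1.05 ± 0.16 (adjusted p 0.00252). In A549 it was lower than in H460 by -0.70 ± 0.16 (adjusted p 0.0165), a call that was lost in 6 of the 12 alternatives. It was at -0.32 with an adjusted p of 0.237 on log2(TPM + 1) and at -0.36 with 0.225 on log2(TPM + 0.1). The adjusted p was 0.0538 without the treatment term, 0.0906 without the H460 control, 0.162 without the A549 control, and 0.0973 without the A549 si-MALAT1 library. H1299 and A549 were not separated for SMARCA2, since the difference of 0.34 had an interval from -0.03 to 0.72 and an adjusted p of 0.115.

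The balance of the ATPases therefore differed by line. SMARCA4 made up 63.1% and 57.4% of the summed TPM of SMARCA4 and SMARCA2 in the H460 control and si-MALAT1 libraries, 57.7% and 45.6% in H1299, and 26.7% and 20.7% in A549. Expressed as a ratio, SMARCA4 was at 1.71 and 1.35 times the TPM of SMARCA2 in H460, 1.36 and 0.839 times in H1299, and 0.363 and 0.261 times in A549. The A549 shares lay under those of the other lines, while the H460 and H1299 shares overlapped. The summed TPM of both ATPases was 26.0 and 21.1 in H460, with H1299 at 11.2 and 12.9 and A549 at 8.41 and 10.6. Thus both H460 libraries lay above the other 4. These shares are descriptions with 1 library per line and condition.

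**Figure D2:**
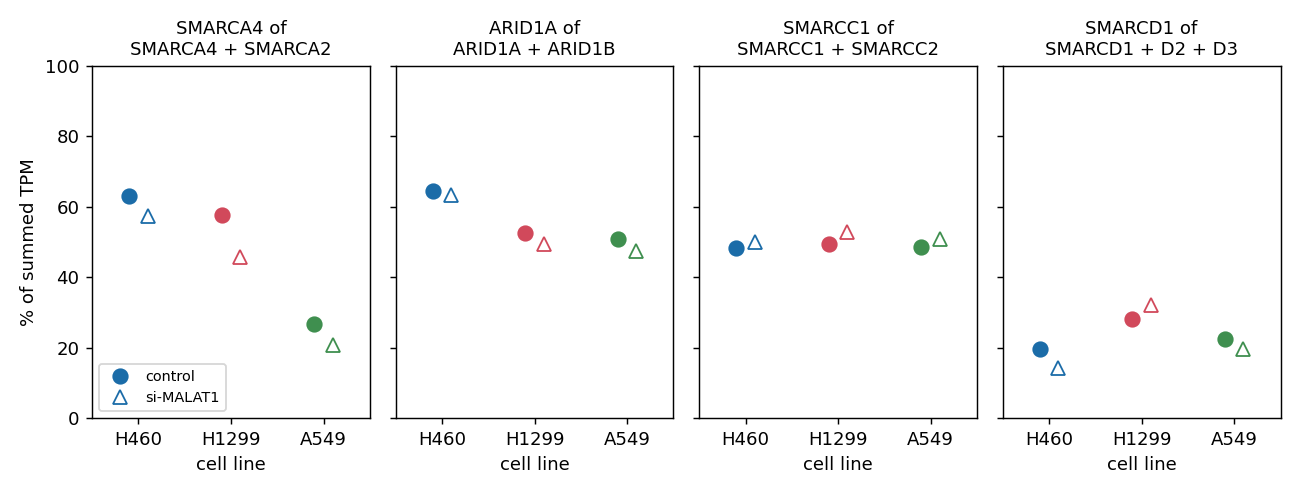
Share of a gene in the summed TPM of its paralog family, in percent, for each cell line; filled circles are control libraries and open triangles are si-MALAT1 libraries. SMARCA4 fell to 26.7% and 20.7% of the ATPase TPM in A549, while SMARCC1 stayed between 48.2% and 52.9% of the SMARCC1 and SMARCC2 total in all 6 libraries.

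The genes next to SMARCA4 were read to see whether the difference extended along the chromosome. The nearby protein-coding genes described are CARM1, YIPF2, and TIMM29 on the side of lower coordinates and SPC24 and KANK2 on the other. None of these 5 genes was called lower in H1299 than in H460. TIMM29 was higher there by 0.71, YIPF2 by 0.54, and KANK2 by 0.94, all at an adjusted p under 0.05, whereas CARM1 (0.37) and SPC24 (0.12) were not called. In A549, YIPF2 was lower than in H460 by -0.59 ± 0.13 (adjusted p 0.0186), and the other 4 genes were not called. Between A549 and H1299, however, 3 of the 5 genes were lower in A549, as SMARCA4 was: KANK2 by -1.15 ± 0.17 (adjusted p 0.00303), YIPF2 by -1.13 ± 0.14 (adjusted p 0.00131), and CARM1 by -0.58 ± 0.13 (adjusted p 0.0142), while TIMM29 (-0.52) and SPC24 (-0.44) were not called. The difference of SMARCA4 between A549 and H460, with a 95% interval from -3.30 to -2.53, lay outside the intervals of all 5 genes. Around SMARCA2, the neighbours DMRT1, DMRT2, DMRT3, and KCNV2 had at most 8 reads in any library, VLDLR was not called in any comparison of lines, and PUM3 was lower in H1299 than in H460 by -0.89 ± 0.14 (adjusted p 0.00303) and higher in A549 than in H1299 by 1.11 ± 0.14 (adjusted p 0.00157).

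**Figure D3:**
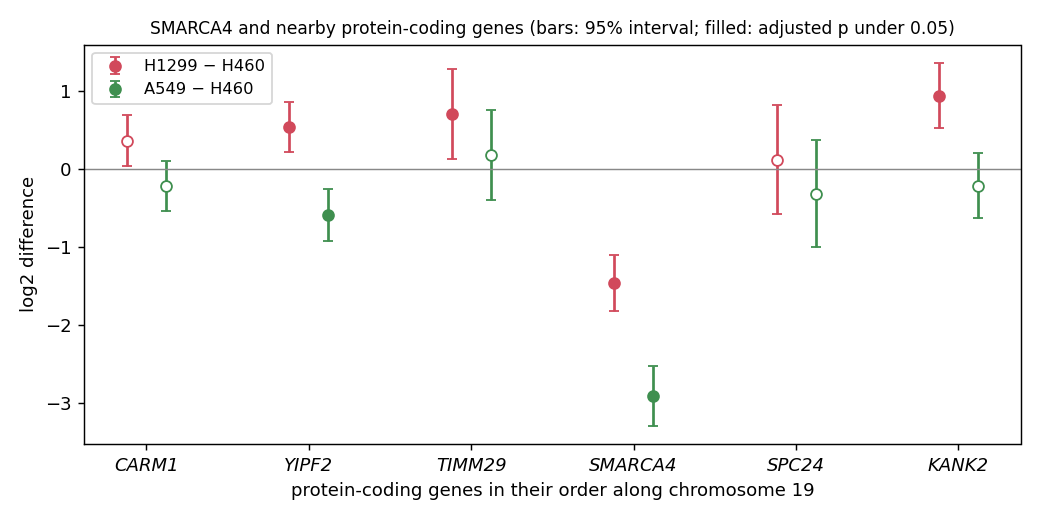
Log2 difference from H460 of SMARCA4 and 5 nearby protein-coding genes, in chromosome order, for H1299 and A549; bars are 95% intervals of the edgeR fit and filled points have an adjusted p under 0.05. SMARCA4 stood at -1.46 and -2.91, while the nearby genes ranged from -0.59 to 0.94.

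The ARID subunits of canonical BAF were highest in H1299. ARID1A (Gene ID 8289; chromosome 1, 26696015 to 26782104), whose loss is a frequent event in carcinomas, was at 4.85 and 3.68 TPM in the H460 control and si-MALAT1 libraries, 8.37 and 11.95 TPM in H1299, and 3.74 and 3.90 TPM in A549. The H1299 libraries lay above the other 4, and those of H460 and A549 overlapped. The log2 difference was 0.89 ± 0.20 for H1299 minus H460 (adjusted p 0.0120) and -1.33 ± 0.20 for A549 minus H1299 (adjusted p 0.00300). The first call was lost without the H460 si-MALAT1 library (0.61, adjusted p 0.0561) and without the H1299 si-MALAT1 library (0.60, adjusted p 0.05004). A549 minus H460 was -0.44, with an interval from -0.92 to 0.04; without the H460 si-MALAT1 library it was -0.71, with an adjusted p of 0.0407.

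ARID1B (Gene ID 57492; chromosome 6, 156776026 to 157210779), the paralog that replaces ARID1A in a part of BAF complexes, was at 2.66 and 2.14 TPM in H460, 7.54 and 12.2 TPM in H1299, and 3.63 and 4.31 TPM in A549. No libraries of different lines overlapped. ARID1B was higher in H1299 than in H460 by 1.53 ± 0.18 (adjusted p 0.00106), the largest rise among the 10 genes, and lower in A549 than in H1299 by -1.17 ± 0.18 (adjusted p 0.00320). The difference between A549 and H460 was 0.36, with an interval from -0.07 to 0.79. ARID1A made up 64.6% and 63.2% of the summed TPM of the pair in H460, with H1299 at 52.6% and 49.4% and A549 at 50.8% and 47.5%, so both H460 libraries lay above the other 4. A lncRNA on the opposite strand overlaps 7.49% of the exonic bases of ARID1B, and the sources do not state whether reads were counted by strand.

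The PBAF subunits ARID2 and PBRM1 differed from each other. ARID2 (Gene ID 196528; chromosome 12, 45729706 to 45908037), the ARID subunit of PBAF, was at 7.02 and 7.53 TPM in H460, 19.4 and 27.2 TPM in H1299, and 9.67 and 11.6 TPM in A549, with no overlap between lines. It was higher in H1299 than in H460 by 1.30 ± 0.13 (adjusted p 0.000641) and lower in A549 than in H1299 by -1.07 ± 0.13 (adjusted p 0.00155), while A549 minus H460 was 0.24 (interval -0.09 to 0.56) and was called on the TPM scales alone, with 0.49 (adjusted p 0.0498) on log2(TPM + 1) and 0.53 (adjusted p 0.0401) on log2(TPM + 0.1). PBRM1 (Gene ID 55193; chromosome 3, 52545367 to 52685913), the bromodomain subunit that reads acetylated histones, was at 9.23 and 5.21 TPM in H460, 14.7 and 9.40 TPM in H1299, and 8.86 and 4.85 TPM in A549. The si-MALAT1 library was the lower one in each line. The H1299 libraries lay above the other 4 in TPM, by 9.40 against 9.23 at the closest, and those of H460 and A549 overlapped. In CPM the H1299 si-MALAT1 library, at 53.4, lay under the H460 and A549 controls, at 66.5 and 54.4. The line difference was called for A549 minus H1299 only, at -0.70 ± 0.13 (adjusted p 0.00645), and this call was lost without the treatment term (adjusted p 0.173), without the A549 control library (0.0574), and without the A549 si-MALAT1 library (0.101). H1299 minus H460 was 0.34 (interval 0.02 to 0.65, adjusted p 0.0699) and A549 minus H460 was -0.36 (interval -0.68 to -0.05, adjusted p 0.0756), and DESeq2 put both past the threshold, with 0.0197 and 0.0258. On log2(TPM + 1) the first was called as well, with 0.00986.

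Among the 10 genes, the core subunits SMARCB1, SMARCC1, SMARCC2, and SMARCD1 were again highest in H1299. The core subunits SMARCD2, SMARCD3, and SMARCE1, described below, were not. SMARCB1 (Gene ID 6598; chromosome 22, 23786966 to 23838009), the core subunit lost in rhabdoid tumors, was at 3.98 and 3.14 TPM in H460, 9.53 and 9.32 TPM in H1299, and 4.27 and 4.67 TPM in A549. The H1299 libraries lay above the other 4. The log2 difference from H460 was 1.07 ± 0.15 (adjusted p 0.00207), with -1.02 ± 0.15 for A549 minus H1299 (adjusted p 0.00285). A549 and H460 were not separated, at 0.05 with an interval from -0.32 to 0.41. DERL3, on the opposite strand, overlaps 54.4% of the annotated exonic bases of SMARCB1, and had at most 34 reads in any library. If reads were counted without regard to strand, those of the overlap cannot be told apart, so the SMARCB1 values are uncertain to that extent.

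SMARCC1 (Gene ID 6599; chromosome 3, 47585269 to 47781893) and SMARCC2 (Gene ID 6601; chromosome 12, 56162359 to 56189504), the paralogous scaffold subunits, moved together between lines. SMARCC1 was at 12.5 and 13.3 TPM in H460, 23.6 and 31.4 TPM in H1299, and 14.5 and 17.2 TPM in A549. SMARCC2 was at 13.4 and 13.3 TPM in H460, 24.2 and 28.0 TPM in H1299, and 15.4 and 16.6 TPM in A549. H1299 was above H460 by 0.73 ± 0.13 for SMARCC1 (adjusted p 0.00496) and by 0.64 ± 0.12 for SMARCC2 (adjusted p 0.00688). A549 was below H1299 by -0.73 ± 0.13 (adjusted p 0.00549) and -0.71 ± 0.12 (adjusted p 0.00517), and these calls were lost without the A549 control library (0.0782 and 0.0791) or without the A549 si-MALAT1 library (0.0826 and 0.0736). Between A549 and H460 the interval was -0.31 to 0.31 for SMARCC1 and -0.37 to 0.23 for SMARCC2. SMARCC1 held between 48.2% and 52.9% of the pair's summed TPM in all 6 libraries, so the balance of this pair differed little where that of the ATPases differed much.

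SMARCD1 (Gene ID 6602; chromosome 12, 50085236 to 50100707), a core subunit that links the complex to transcription factors, was at 12.9 and 10.3 TPM in H460, 19.2 and 22.9 TPM in H1299, and 17.0 and 14.8 TPM in A549. It was higher in H1299 than in H460 by 0.50 ± 0.16 (adjusted p 0.0378), the weakest of the calls in that comparison. This call was lost in 6 of the 12 alternatives. The adjusted p was 0.0512 without the treatment term, 0.0565 without the H460 control, 0.179 without the H460 si-MALAT1 library, 0.188 without the H1299 si-MALAT1 library at a log2 difference of 0.30, 0.0802 without the A549 control, and 0.0768 without the A549 si-MALAT1 library. A549 minus H1299 was -0.33, with an interval from -0.72 to 0.05, and without the H1299 control library it was -0.53, with an adjusted p of 0.0435.

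Of 18 further subunits of these complexes, 17 were tested, and ACTL6B, the neuronal actin-like subunit, had at most 8 reads in any library. Between H1299 and H460, 11 of the 17 were called, 7 higher and 4 lower in H1299, where the share over all genes was 50.7%. Between A549 and H460, 4 were called, 2 in each direction, against 35.3% of all genes, and between A549 and H1299, 9 were called, 3 higher and 6 lower in A549, against 47.2%. Their median log2 differences, without DPF3, which had 0 reads in H460, were 0.34, -0.03, and -0.28 in this order. Of 7 ATPases of other remodellers (SMARCA5, SMARCA1, CHD3, CHD4, INO80, EP400, and SRCAP), 4, 3, and 3 were called in the same comparisons, against the same shares of all genes, with medians of 0.03, 0.02, and -0.02.

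Among the SMARCD paralogs, SMARCD2 was the most abundant, at 36.3 to 51.4 TPM over the 6 libraries, and was not called in any comparison of lines. SMARCD3, the form known from heart muscle, was at 17.0 and 19.1 TPM in H460, 6.03 and 4.85 TPM in H1299, and 7.53 and 10.2 TPM in A549. It was lower in H1299 than in H460 by -2.06 ± 0.21 (adjusted p 0.000582) and lower in A549 than in H460 by -1.29 ± 0.20 (adjusted p 0.00480). A549 was above H1299 by 0.77 ± 0.20 (adjusted p 0.0239). SMARCD3 was thus highest in H460 as the ATPases were. SMARCD1 made up 14.1% to 19.5% of the summed TPM of the 3 paralogs in H460, 28.2% to 32.3% in H1299, and 19.6% to 22.4% in A549.

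Other subunits with large differences were SMARCE1, the HMG-box subunit of BAF and PBAF, and the DPF paralogs, which carry histone-reading PHD fingers. SMARCE1 was higher in A549 than in H1299 by 1.496 ± 0.13 (adjusted p 0.000405), at 27.8 and 29.5 TPM against 10.5 and 10.7 TPM. DPF1 was higher in H1299 than in H460 by 1.42 ± 0.44 (adjusted p 0.0386), and DPF3 had 141 and 120 reads in H1299, 0 in both H460 libraries, and 0 and 7 in A549. PHF10, the PHD-finger subunit of PBAF, was lower in A549 than in H460 by -0.76 ± 0.17 (adjusted p 0.0179). SMARCA1, an ATPase of the ISWI family and not of SWI/SNF, was higher in A549 than in H460 by 1.80 ± 0.15 (adjusted p 0.000557), at 70.1 and 90.5 TPM against 18.8 and 18.5 TPM, whereas the ISWI ATPase SMARCA5 was not called in any comparison of lines.

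The siRNA was compared with the control across the 3 cell lines, with the cell line as the block. None of the 10 subunit genes was called in the edgeR test, which called 0.0% of the 21771 genes. MALAT1 itself had an adjusted p of 0.0542, and 2836 genes had an unadjusted p under 0.05. DESeq2 called 1337 genes, 4.26% of 31353 (2.22% higher and 2.04% lower), and 3 of the 10 subunit genes were among them. The 31353 are all genes with any read, including genes with few reads that the edgeR filter left out. The share among genes with as many reads as the subunit genes was not computed. The median log2 change of the 10 genes was 0.10, against 0.01 for all genes tested. Changes within a line are given as log2 of the scaled read count plus 1, si-MALAT1 minus control, with a 95% Clopper-Pearson interval that covers counting error only, since there is 1 library per line and condition.

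PBRM1 was the 1 subunit gene past a fold of 1.5 in a line, and it was past it in all 3. On log2(TPM + 1) it was again past it in each line, and ARID1B passed it in H1299 as well, at 0.63. H460 had 4057 PBRM1 reads in the control and 2425 in the si-MALAT1 library, H1299 had 5973 and 3536, and A549 had 2340 and 1477. The log2 change was -0.66 (interval -0.73 to -0.59) in H460, -0.63 (-0.69 to -0.57) in H1299, and -0.81 (-0.90 to -0.71) in A549, and the mean was -0.70 ± 0.10 (SD, n = 3). Of the 17834 genes with reads in every library, 1.28% were lower by at least 1.5-fold in all 3 lines, and the shares lower by that much in a single line were 10.3% (H460), 11.4% (H1299), and 11.4% (A549). Higher by that much were 9.5%, 11.7%, and 11.5%, and 18.8% were lower in all 3 lines by any amount. The paired edgeR fit gave -0.71 ± 0.11 with an unadjusted p of 0.000501 and an adjusted p of 0.0999, and DESeq2 gave -0.70 with an adjusted p of 4.51e-08. Over the 10 alternatives the log2 change of PBRM1 ran from -0.77 to -0.66 and its adjusted p from 4.51e-08 to 1.000.

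An earlier search of these same libraries had picked out 2 overlapping words of 7 bases, TGAATCA and ATGAATC, in 3′ UTRs of genes that were lower after si-MALAT1, so the words are not independent of these data. The sites are shown because PBRM1 was the member with the largest change. Of the 10 subunit genes, 2 carry either word on the transcript strand in their longest annotated 3′ UTR, PBRM1 at 2 sites in 2696 bases and ARID1B at 1 site in 2888 bases. The sequences, read from GRCh38 on the strand of the transcript, 5′ to 3′, have the words in capitals, and the full ATGAATCA holds both words in overlap:
PBRM1, chr3:52546554-52546579, minus strand: taatctgctATGAATCAgtacccaga
PBRM1, chr3:52546289-52546313, minus strand: ttgggcaatTGAATCAtcatggact
ARID1B, chr6:157208954-157208979, plus strand: atttgcttcATGAATCAaggtgtgga
Either word occurs in 18.1% of the 15025 genes tested that have such a 3′ UTR, and in 25.4% of the 2307 whose 3′ UTR is 0.8 to 1.25 times as long as that of PBRM1. A match is a description of the sequence. ARID1B, with the same 8 bases, changed by -0.15 (interval -0.26 to -0.05) in H460, 0.45 (0.39 to 0.51) in H1299, and 0.14 (0.04 to 0.25) in A549.

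ARID2, which like PBRM1 belongs to PBAF, had more reads after si-MALAT1 in each line. Its log2 change was 0.23 (interval 0.17 to 0.30) in H460, 0.42 (0.38 to 0.46) in H1299, and 0.25 (0.18 to 0.32) in A549, and averaged 0.30 ± 0.10 (SD, n = 3). Its adjusted p was 0.347 in edgeR and 0.0382 in DESeq2. Thus PBRM1 and ARID2 had changes of opposite sign in 3 of 3 lines. For the further PBAF subunits PHF10 and BRD7 the sign differed between lines. PHF10 was at -0.26 in H460, 0.22 in H1299, and 0.15 in A549. BRD7 was at 0.21 in H460, -0.03 in H1299, where the interval includes 0, and 0.43 in A549. In TPM the direction of BRD7 in A549 was the reverse, with 38.0 in the control and 34.7 in the si-MALAT1 library. Its TPM was 24.8 and 25.1 in H460 and 24.1 and 22.9 in H1299.

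The ATPases changed less than PBRM1. SMARCA4 was at a log2 change of -0.28 (interval -0.34 to -0.22) in H460, -0.21 (-0.30 to -0.11) in H1299, and 0.07 (-0.12 to 0.26) in A549, where the interval includes 0. SMARCA2 was at 0.07 (0.00 to 0.15), 0.49 (0.39 to 0.58), and 0.41 (0.30 to 0.51). On log2(TPM + 1) the sign turned for SMARCA2 in H460, to -0.08, and for SMARCA4 in A549, to -0.02. Neither was called by edgeR with the line as block, at an adjusted p of 0.661 for SMARCA4 and 0.388 for SMARCA2. The share of SMARCA4 in the ATPase TPM was lower in the si-MALAT1 library in each line, and A549 lay under the other lines in both conditions.

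The scaffold subunits had small positive changes in the scaled counts of each line, and on log2(TPM + 1) SMARCC2 turned to -0.01 in H460. SMARCC1 was at 0.23, 0.34, and 0.25 in H460, H1299, and A549, with a mean of 0.27 ± 0.06 (SD, n = 3), and SMARCC2 at 0.13, 0.18, and 0.16, with a mean of 0.16 ± 0.02. The adjusted p was 0.376 and 0.638 in edgeR, and DESeq2 called SMARCC1, with 0.0331. Genes with a positive change in all 3 lines made up 21.4% of the 17834 genes, and 4 of the 10 subunit genes (SMARCA2, ARID2, SMARCC1, and SMARCC2) were of this kind. On log2(TPM + 1) this held for ARID2 and SMARCC1 and not for SMARCA2 and SMARCC2.

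For the remaining genes the sign of the change differed between lines, as it did for ARID1B. For SMARCA4 the 1 positive change, 0.07 in A549, had an interval that includes 0. ARID1A was at -0.28 in H460, 0.45 in H1299, and 0.07 in A549. SMARCB1 was at -0.21, -0.10, and 0.15, and SMARCD1 at -0.19, 0.21, and -0.18. Their means over the 3 lines lay between -0.05 and 0.08 and were smaller than their SDs, which were 0.37 for ARID1A, 0.18 for SMARCB1, and 0.23 for SMARCD1.

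**Figure D4:**
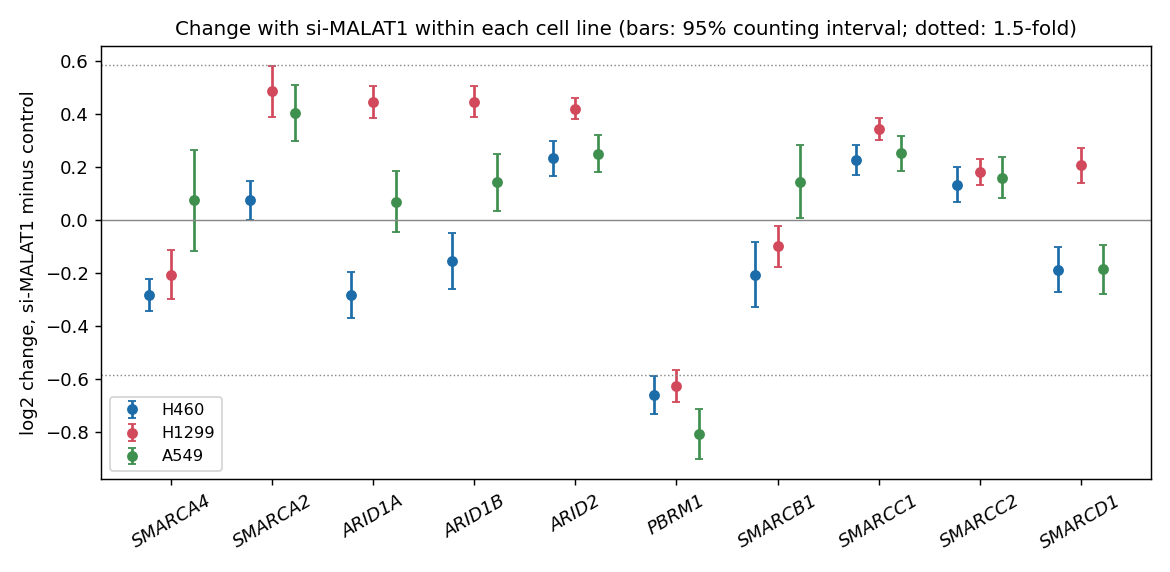
Log2 change of the 10 SWI/SNF subunit genes with si-MALAT1 within each cell line, as si-MALAT1 minus control of scaled read counts plus 1; bars are 95% counting intervals of 1 library against 1 library and dotted lines mark 1.5-fold. PBRM1 lies past the lower line in the 3 cell lines, at -0.66, -0.63, and -0.81, and the other 9 genes lie between the lines.

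In the 17 tested further subunits, 0 were called by the paired edgeR test, and their median change without DPF3 was 0.09. Of the 16 with reads in every library, 8 had a positive change in H460, 5 in H1299, and 12 in A549. Those past a fold of 1.5 numbered 3 (H460), 2 (H1299), and 1 (A549), where 19.8%, 23.1%, and 22.9% of all genes passed it in either direction.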

How the data were processed

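The authors trimmed the reads of stranded, ribosome-depleted total RNA libraries, aligned them to GRCh38 with HISAT2 2.1.0, and estimated abundances per gene with StringTie, whose version differs between the methods and the submitters' processing notes. Those notes also name hg19; the deposited annotation is on GRCh38. The authors deposited whole-number read counts, which are not normalized, and TPM and FPKM, which they scaled for length and depth. FPKM were not used. Another 18 columns of samples outside this series were not used.

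Counts were tested with edgeR 4.0.16 (filterByExpr on the model, TMM, quasi-likelihood test, Benjamini-Hochberg), with cell line and treatment as terms and 2 residual degrees of freedom; its SE is the log2 difference over the square root of F. The cell line pairs each si-MALAT1 library with its control. Changes within a line used DESeq2 size factors (RLE) and a pseudocount of 1 over genes with reads in all 6 libraries. DESeq2 1.42.0 and limma 3.58.1 on log2(TPM + 1) or log2(TPM + 0.1), RLE, no filter, no block, no treatment term, and left-out libraries were alternatives. The test was also run on simulated counts with the same spread for every gene and the same treatment effect in every line. That run does not show how the test performs on these libraries. Total counts of 42506818 to 68515992 gave at least 426 reads per subunit gene and library. Intervals of changes within a line cover counting error only, whereas those of the edgeR fit rest on its SE. 3′ UTRs came from the deposited annotation, sequence from GRCh38.

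The 10 genes, and the lists of other subunits, remodellers, and markers, were chosen with earlier results of these data known. Besides the 10 genes the text names MALAT1, paralogs, the nearest 3 protein-coding genes on each side of SMARCA4 and SMARCA2, and, from the lists, the 3 with the largest called difference in each comparison of lines. Items withheld from the text are not reported here. Markers, DERL3, ACTL6B, SMARCA5, BRD7, and the 3′ UTR words were named after values were seen or for a check. Scripts ran in R 4.3.3 and, with pandas 2.3.3, scipy 1.17.1, and numpy 2.4.6, in Python 3.11.15.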

Additional observations from a re-analysis of the deposited data

Results flagged for a closer look

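With counting intervals on opposite sides of 0 in different cell lines, 4 subunit genes had a change with si-MALAT1 that was up in at least 1 line and down in another. The gap between the highest and the lowest of the 3 log2 changes was 0.73 for ARID1A, 0.60 for ARID1B, 0.35 for SMARCB1, and 0.39 for SMARCD1. ARID1A and ARID1B were lower in H460 and higher in H1299, SMARCB1 was lower in H460 and H1299 and higher in A549, and SMARCD1 was higher in H1299 and lower in H460 and A549. For SMARCB1 the A549 interval ran from 0.0077 to 0.29, so its lower end lay near 0. Intervals under another scaling were not computed. With 1 library for each line and condition, the difference between lines was not tested, and the intervals cover counting error only.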

How the results depend on the processing

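The number of genes called between cell lines stayed within 1.5 times under the other tool, scaling, filter, and model, and leaving out 1 library gave 8674 to 10194 for H460 and H1299, 3795 to 8348 for H460 and A549, and 6038 to 11090 for H1299 and A549. For si-MALAT1, 0 genes were called by edgeR, also with RLE, without the filter, and with no replicate block, which left PBRM1 at -0.70 with an adjusted p of 1.000. DESeq2 called 1337 genes. Limma on log2(TPM + 1) or log2(TPM + 0.1) and a filter needing 3 libraries, which was chosen after seeing the data, called 1, and leaving out 1 cell line gave 0 to 140. With log2(TPM + 1), the genes past 1.5-fold within a line fell from 3523, 4119, and 4087 to 1039 (H460), 1808 (H1299), and 1566 (A549), and with genes at 0 reads kept they were 9102, 10763, and 9479.

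Of 360 differences between lines of the 10 genes, 11 changed sign, all between A549 and H460 and none called. SMARCC1, at -0.00049, became 0.0051 with DESeq2, 0.016 with RLE, 0.00077 without the treatment term, 0.28 and 0.29 on log2(TPM + 1) and log2(TPM + 0.1), 0.039 without the H460 control, and 0.019 without the A549 si-MALAT1 library, over a range from -0.039 to 0.039 with 1 library left out. SMARCC2 became 0.24 and 0.26 on the TPM scales, and SMARCB1 -0.07 without the H460 and -0.10 without the A549 si-MALAT1 library, in a range from -0.10 to 0.21. Another 21 calls were lost and 8 gained. With si-MALAT1, leaving out 1 line moved ARID1A from -0.13 (without H1299) to 0.25, ARID1B from -0.025 (without H1299) to 0.28, and SMARCB1 from -0.17 to 0.0071 (without H460). The causes were not tested. With 2 residual degrees of freedom and 1 library per line and condition, small changes cannot be told from variation between cultures.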
